A study of Mus musculus with 10 samples.

Results

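Cxcl1, Cxcl2 and Cxcl3 encode secreted chemokines that attract neutrophils. They are the 3 members described here, of 57010 gene identifiers in the table, and they were chosen by symbol because earlier results of these data showed higher levels after confinement. Their confinement values are therefore given as a description with no test, whereas genotype was not part of the choice and was tested. All 3 were among the 12455 genes that averaged 10 normalized reads or more over the libraries and were tested, but Cxcl3 reached that mean through the confined libraries alone.

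The study sequenced polyadenylated RNA in 10 libraries from BMDM, mouse macrophages grown in culture from marrow precursors. The marrow came from WT mice or from WASp KO mice (WKO), which lack an activator of branched actin assembly in blood cells, and each culture had 7 days in RPMI with 20 ng/mL of recombinant mouse M-CSF. Unconfined controls (NC) gave 2 WT and 2 WKO libraries, and cells held for 1 h at a height of 3 µm under PDMS micropillars gave 3 WT and 3 WKO libraries, each made from RNA of which 5 ng entered library preparation. The labels give neither strain, age nor number of mice, and they do not say how unconfined cells were handled during that hour, so p-values measure the spread between these libraries, which may be technical. Replicates are named by the numbers in the labels, which are not consecutive.

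As background, chemokines of this family carry an ELR motif ahead of their paired cysteines and act on the receptor CXCR2, which neutrophils carry in abundance. In macrophages their genes are kept near silence at rest and are switched on within minutes to hours by inflammatory signals, largely through the transcription factor NF-kB. Their transcripts hold AU-rich elements in the 3′ UTR and are short-lived, being cleared by proteins such as tristetraprolin (Zfp36) and Regnase-1 (Zc3h12a).

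The genes lie in 1 cluster on the plus strand of chromosome 5. In GENCODE M21 (GRCm38), Cxcl3 (ENSMUSG00000029379) spans chr5:90786103-90789600, Cxcl1 (ENSMUSG00000029380) spans chr5:90891241-90893115 and Cxcl2 (ENSMUSG00000058427) spans chr5:90903871-90905938. Each has 4 exons, and none of these exons overlaps another gene. The related genes Cxcl5, Ppbp, Pf4 and Cxcl15 lie in the same interval. The promoters are shown because the members were high in the same libraries. They are RefSeq sequences of the GRCm38.p6 build, matched for all 3 members and ending before the first annotated start, at chr5:90890995-90891234 for Cxcl1, chr5:90903649-90903870 for Cxcl2 and chr5:90785851-90786090 for Cxcl3. Capitals mark the longest run of letters that the 3 share and, nearer the start, the longest further run they share.
Cxcl1: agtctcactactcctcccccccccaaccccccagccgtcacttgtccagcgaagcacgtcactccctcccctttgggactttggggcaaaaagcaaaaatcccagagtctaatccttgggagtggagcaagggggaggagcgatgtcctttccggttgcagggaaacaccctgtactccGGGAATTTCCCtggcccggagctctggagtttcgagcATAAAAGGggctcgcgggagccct
Cxcl2: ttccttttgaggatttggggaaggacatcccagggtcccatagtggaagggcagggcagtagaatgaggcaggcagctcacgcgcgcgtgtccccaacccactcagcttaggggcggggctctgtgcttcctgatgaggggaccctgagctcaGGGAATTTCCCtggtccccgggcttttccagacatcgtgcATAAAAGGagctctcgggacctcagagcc
Cxcl3: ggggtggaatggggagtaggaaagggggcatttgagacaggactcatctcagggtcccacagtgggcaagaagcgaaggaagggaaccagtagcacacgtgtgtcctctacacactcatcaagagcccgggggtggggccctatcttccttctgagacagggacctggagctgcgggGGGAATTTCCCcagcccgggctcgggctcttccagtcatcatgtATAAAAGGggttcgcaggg

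The first run, GGGAATTTCCC, was found by comparing the members' promoters, so its presence in all 3 is given by the search. It lay 67 to 57 bases upstream of the annotated start in Cxcl1, 69 to 59 in Cxcl2 and 75 to 65 in Cxcl3. The NF-kB consensus, searched by name on both strands, matched within this run and nowhere else in each member's 300-base window, with 2 overlapping matches on opposite strands. Of 32817 promoter windows of that length, 14 (0.0427%) held the run and 8.46% held the NF-kB consensus. The second run, ATAAAAGG, an A/T-rich stretch of the TATA type, began 30 bases upstream of the start in Cxcl1, 29 in Cxcl2 and 31 in Cxcl3, and 1.76% of the windows held it on either strand. Between the runs lay 26, 29 and 33 bases in Cxcl1, Cxcl2 and Cxcl3. No window of a member held the CRE letters TGACGTCA (1.79% of all windows), the AP-1 letters TGANTCA (7.81%) or the C/EBP letters TTGCNNAA (10.8%) on either strand. In the same cluster, the windows of Cxcl15, Ppbp and Pf4 held no copy of the first run, and Ppbp held the second. Of the 11 other genes with the first run, 4 were tested (Hpn, Il16, Lyzl4 and Zfp84), and none passed for confinement in either genotype. Of all tested genes, 0.891% passed higher and 0.265% lower after confinement in WT, and 1.49% and 0.233% in WKO. With shares that low, the lack of a call among 4 genes does not show how genes with the run respond. The median log2 change of these 4 genes after confinement was 0.06 in WT and -0.16 in WKO. At the other end of the transcripts, in the first 592 bases of the 3′ UTR, the AU-rich pentamer AUUUA occurred 7 times in Cxcl1, 9 times in Cxcl2 and 4 times in Cxcl3, against a median of 1 over 12391 genes. As many or more copies were found in 0.42%, 0.0888% and 5.44% of those genes.

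Before the values, the libraries were checked. Totals ranged from 13295701 to 19329908 reads, so that 3 reads, taken as the detection floor, equal a normalized read count of 2.35 to 3.59; floors and counting intervals cover counting error only, since PCR copies are not independent molecules. Was, the gene for WASp, had 1308 to 1649 normalized counts in the WT libraries and 96.9 to 154 in the WKO libraries, which matched the genotype labels without reaching 0. All 8 macrophage markers, such as Csf1r and Adgre1, were above 0 in every group. One library stands apart: WKO confined replicate 5 had the highest summed stromal markers (collagens and related genes, 7807 normalized counts), and results that rest on it are given with and without it.

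Cxcl1, the chemokine also known as KC, was close to undetected in unconfined WT cells, with normalized counts of 1.90 and 3.84 in replicates 1 and 3, which stand for 2 and 4 reads. In unconfined WKO cells it had 12.8 and 35.1, from 13 and 34 reads. After confinement it had 933, 1336 and 1911 in WT replicates 2, 3 and 6. In WKO it had 1156, 458 and 3418 in replicates 1, 2 and 5. Every confined library was far above every unconfined one, and the WT and WKO confined libraries overlapped, with the highest and the lowest both in WKO. The group means were 2.87 ± 1.37 (SD, n = 2) in unconfined WT, 24.0 ± 15.8 (n = 2) in unconfined WKO, 1393 ± 492 (n = 3) in confined WT and 1677 ± 1548 (n = 3) in confined WKO. The confined mean was thus 486 times the unconfined mean in WT, where the reads behind it give a 95% counting interval of 232 to 1378 for the read-rate ratio of 506. In WKO the ratio of means was 70.0, and 33.7 without WKO confined replicate 5.

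Cxcl2, the chemokine also known as MIP-2, was present at a low level before confinement. Its normalized counts were 50.3 and 31.7 in unconfined WT replicates 1 and 3, and 51.3 and 66.1 in unconfined WKO replicates 1 and 3. After confinement they were 2207, 4962 and 8728 in WT replicates 2, 3 and 6, and 5636, 2471 and 20069.8 in WKO replicates 1, 2 and 5. The unconfined groups were adjacent without overlapping, and the confined groups overlapped throughout. Group means were 41.0 ± 13.2 (SD, n = 2), 58.7 ± 10.4 (n = 2), 5299 ± 3274 (n = 3) and 9392 ± 9381 (n = 3) in unconfined WT, unconfined WKO, confined WT and confined WKO. The confined mean was 129 times the unconfined mean in WT and 160 times in WKO. Without WKO confined replicate 5 the WKO ratio was 69.1, so which genotype had the larger ratio depended on that library. Per kilobase of transcript, Cxcl2 ranked between 29 and 465 of 11376 genes in the confined libraries, and it took 0.124% of all reads in WKO replicate 5.

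Cxcl3, the third ligand, was the scarcest. Unconfined libraries held 1 read in all, in WT replicate 3, and 0 reads in the other 3, which allows up to the floor of 3 reads in each. Confined WT replicates 2, 3 and 6 had 17.1, 9.38 and 27.3 normalized counts from 16, 8 and 34 reads, and confined WKO replicates 1, 2 and 5 had 22.0, 21.1 and 143.8 from 28, 20 and 120 reads. All 6 confined libraries were above the floor and all 4 unconfined ones below it. Means after confinement were 17.9 ± 8.99 (SD, n = 3) in WT and 62.3 ± 70.6 (n = 3) in WKO. Against the single unconfined WT read, the read-rate ratio was 40.1 with a 95% counting interval of 6.92 to 1610. In WKO the confined mean was at least 20.6-fold higher than 3 reads per unconfined library, and at least 7.10-fold higher without WKO replicate 5. Cxcl3 shares a stretch of 116 transcript bases with Cxcl2 at 98.3% identity, 11.4% of its own transcript, and how reads that match both were counted is not given in the sources used here. Because Cxcl2 was 108 to 484 times as abundant per kilobase in the confined libraries, the low Cxcl3 values are uncertain.

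**Figure D1:**
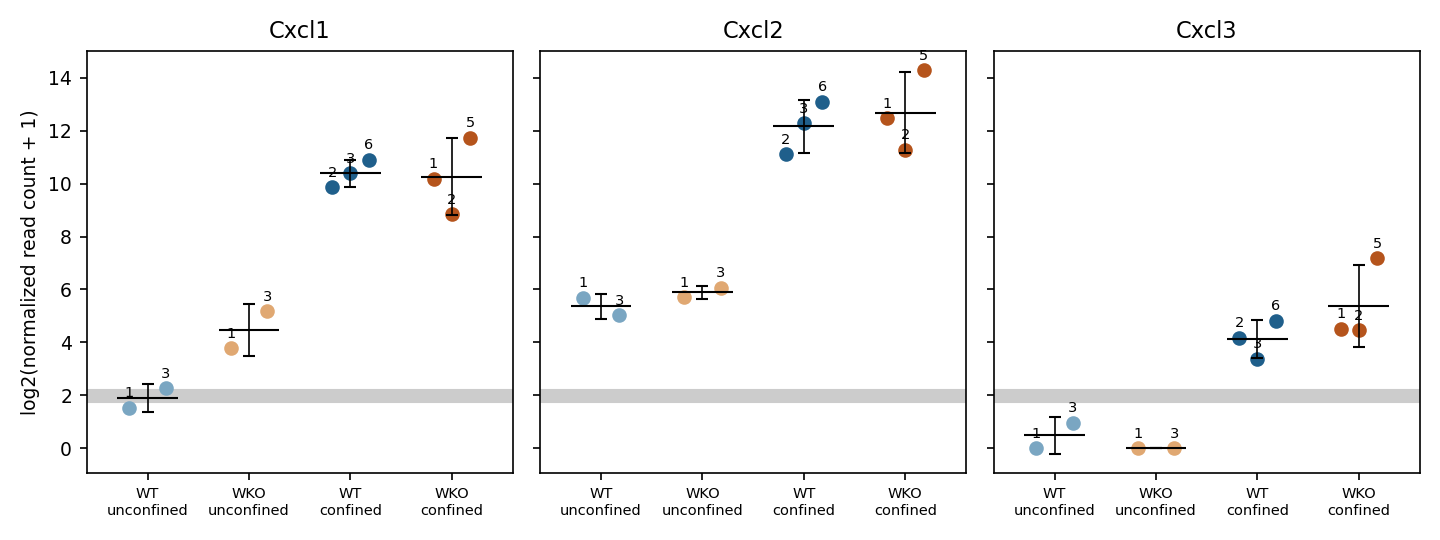
Normalized read counts of Cxcl1, Cxcl2 and Cxcl3 in each of the 10 libraries, on the log2(count + 1) scale. Points are libraries with their replicate numbers, lines and bars are group means and SDs on that scale (n = 2 unconfined, n = 3 confined), and the grey band is the count that 3 reads equal; every confined library lies above every unconfined one for each gene.

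On the log2(count + 1) scale, which understates changes of low genes, the confined minus unconfined difference in WT was 8.48 for Cxcl1 (SE 0.67), 6.80 for Cxcl2 (SE 0.71) and 3.64 for Cxcl3 (SE 0.97). In WKO it was 5.77, 6.79 and 5.39 with the same standard errors, and 5.03, 5.98 and 4.49 without WKO replicate 5. For the background, 0.891% of the tested genes passed higher and 0.265% lower after confinement in WT (limma, adjusted p under 0.05), and 1.49% and 0.233% did so in WKO. Every confined library was above every unconfined library, as for the 3 members, in 4.46% of tested genes. These shares stand beside the members for scale, since the members were chosen on this contrast. The RNA came from whole cultures, so fewer responding cells and less RNA per cell cannot be told apart.

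With all libraries in, the confined libraries of a group differed more in these chemokines than in the median tested gene. In confined WKO the SD on the log2 scale was 1.45 for Cxcl1, 1.52 for Cxcl2 and 1.55 for Cxcl3, where the median tested gene had 0.27. In confined WT it was 0.52, 1.00 and 0.73 against a median of 0.15. For Cxcl3 the WKO spread rested on replicate 5, with log2 values of 4.52, 4.46 and 7.18 in replicates 1, 2 and 5. The WT spread of Cxcl3 comes from 16, 8 and 34 reads, where counting error is part of it. WKO replicate 5 was the highest of the 6 confined libraries for each member and WT replicate 6 was the next highest for each. The lowest differed: WKO replicate 2 for Cxcl1, WT replicate 2 for Cxcl2 and WT replicate 3 for Cxcl3. Of genes described below, Tnf, Nfkbia, Nfkbiz, Tnfaip3 and Zfp36 had the same highest and next highest library. That order was thus not particular to the chemokines. Rel, Bcl3, Zc3h12a, Arid5a and Il1b had WKO replicate 5 highest and another library next. Tnf also spread widely. It had 3293, 5719 and 13389.5 counts in confined WT replicates 2, 3 and 6, and 4583, 2368 and 17188 in WKO replicates 1, 2 and 5. Without WKO replicate 5 the WKO confined means of Cxcl1, Cxcl2 and Cxcl3 fell to 807 ± 493 (SD, n = 2), 4054 ± 2238 and 21.5 ± 0.64. For Cxcl1 and Cxcl2 these are 0.58 and 0.76 times the WT confined means, and for Cxcl3 the value compares with 17.9 in WT.

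The mixture of the chemokines also differed between libraries. Per kilobase, Cxcl2 made up 66.6% to 82.9% of the summed level of the 3 genes in confined libraries, Cxcl1 16.4% to 32.8% and Cxcl3 0.157% to 0.759%. The level of Cxcl2 relative to Cxcl1 was 2.03, 3.19 and 3.92 in confined WT replicates 2, 3 and 6. It was 4.19, 4.64 and 5.05 in confined WKO replicates 1, 2 and 5. Although the level of each chemokine overlapped between the genotypes, this ratio did not, and WKO was 1.57 times WT as a geometric mean. The exact permutation test, two-sided, gave p = 0.10, the smallest value that 3 against 3 allows, for a ratio singled out after its values were seen. When Cxcl2 was set against each of the other genes detected in all 6 confined libraries, the groups separated in this direction for 0.36% of 12215 genes. Most genes varied less than Cxcl2 between these libraries, so their ratios keep the overlap of Cxcl2 itself. The share therefore does not measure how unusual the ratio to Cxcl1 is. In unconfined libraries, where Cxcl1 rests on 2 to 34 reads, the order was the opposite. The ratio was 22.8 and 7.09 in WT replicates 1 and 3, and 3.44 and 1.62 in WKO replicates 1 and 3 (exact permutation p = 0.333, the smallest possible with 2 against 2).

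**Figure D2:**
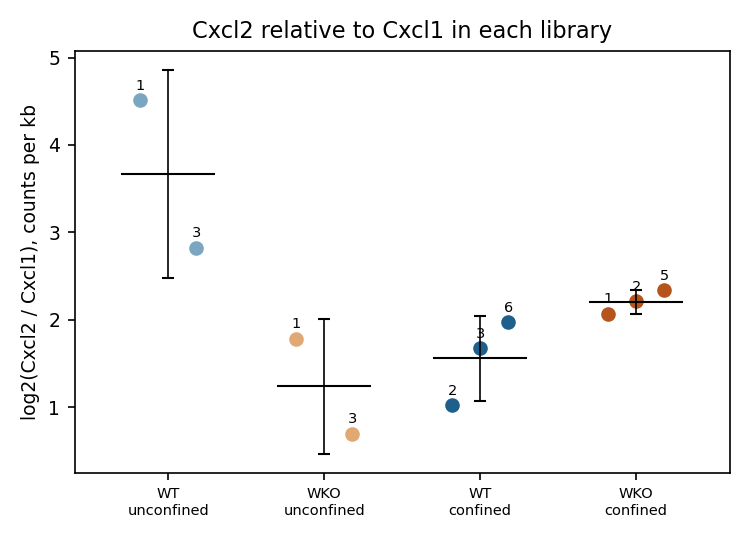
Cxcl2 relative to Cxcl1 in each library, as the log2 of the ratio of normalized counts per kilobase of transcript. Points are libraries with replicate numbers, with group means and SDs; the 3 confined WKO libraries lie above the 3 confined WT libraries, and the unconfined groups are in the reverse order.

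The next comparison asks whether the loss of WASp changes these chemokines before confinement. Cxcl1 was higher in both unconfined WKO libraries than in both WT libraries, with a ratio of means of 8.35 (95% counting interval 3.53 to 23.7 for the read-rate ratio of 8.28). The log2 difference was 2.58 (SE 0.73, 95% interval 0.97 to 4.18), and it did not pass after adjustment over all genes (limma, adjusted p = 0.241). Without WKO confined replicate 5, which enters through the shared estimate of spread, the same difference passed with an adjusted p of 0.0291 (range over all alternatives 0.00104 to 0.999). In that setting 148 genes passed in this comparison, against 18 with all libraries. For Cxcl2 the difference was 0.53 (SE 0.77, 95% interval -1.16 to 2.22, adjusted p = 0.904). Both genes had every WKO above every WT library, an order that 22.2% of tested genes showed in this comparison. With all libraries 0.145% passed in either direction. Cxcl3 was at or under the floor in both groups and has no fold. Summed neutrophil and progenitor markers moved with genotype, from 9265 to 12270 in unconfined WT to 27558 to 33214 in unconfined WKO, with all 12 markers above 0 in every group; their part in the Cxcl1 difference was not tested.

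After confinement no member passed between genotypes. The WKO minus WT log2 difference was -0.13 for Cxcl1 (SE 0.60, 95% interval -1.44 to 1.18, limma adjusted p = 0.946). It was 0.52 for Cxcl2 (SE 0.63, 95% interval -0.86 to 1.90, adjusted p = 0.748) and 1.26 for Cxcl3 (SE 0.87, 95% interval -0.64 to 3.16, adjusted p = 0.518). Of all tested genes, 2.59% passed in this comparison. The intervals still hold differences of over 2-fold in either direction for Cxcl1, and without WKO replicate 5 the estimates were -0.88 for Cxcl1, -0.29 for Cxcl2 and 0.37 for Cxcl3. Without WKO replicate 2, WT replicate 6 or WT replicate 2 an estimate also turned: that of Cxcl1 to 0.57 and 0.13 without the first and second of these, and that of Cxcl2 to -0.01 without the last.

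Whether the genotypes respond differently to confinement was tested by the interaction, the confinement difference in WKO minus that in WT. It was -2.71 for Cxcl1 (SE 0.95, 95% interval -4.78 to -0.64, limma adjusted p = 0.999), so that the smaller Cxcl1 difference in WKO did not pass. Without WKO replicate 5 the Cxcl1 interaction was -3.45 (SE 0.68, limma adjusted p = 0.726) and did not pass either. Both estimates rest on 6 reads of Cxcl1 in unconfined WT. For Cxcl2 the interaction was -0.02 (SE 1.00, 95% interval -2.20 to 2.17, limma adjusted p = 0.999), and -0.83 (SE 0.68) without WKO replicate 5. No interaction is given for Cxcl3, which had 1 read in all 4 unconfined libraries. Of the 12455 tested genes 0% passed the interaction with limma, and edgeR and DESeq2 called 0 on the recovered reads. An unadjusted limma p under 0.05 was found for 258, fewer than that threshold would give if no gene differed.

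**Figure D3:**
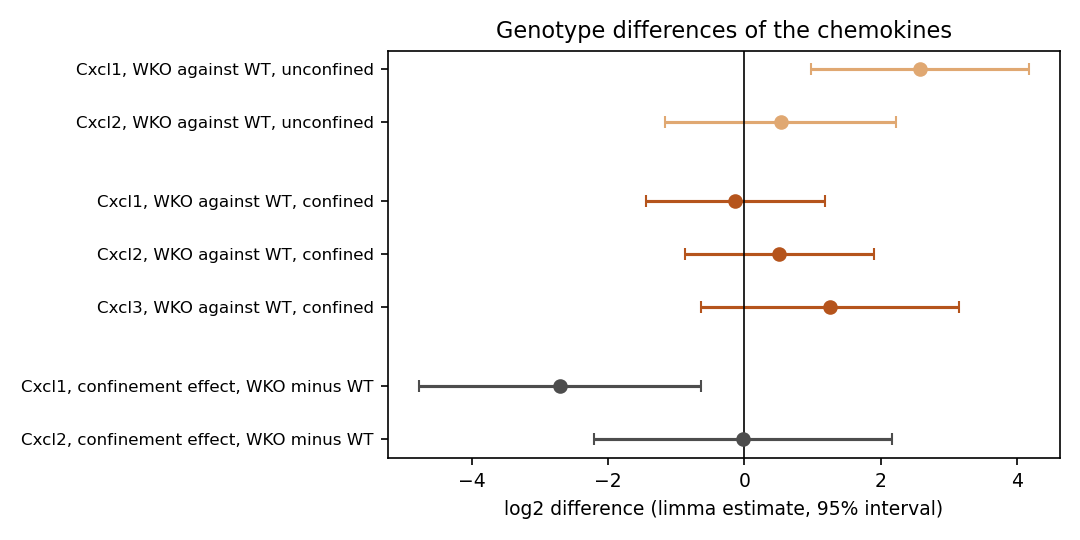
Differences between WKO and WT for Cxcl1, Cxcl2 and Cxcl3, as limma log2 estimates with 95% intervals, in unconfined cells (light), confined cells (dark) and for the interaction (grey). The intervals of Cxcl1 in unconfined cells and of its interaction lie off 0, but neither passed after adjustment over all genes; Cxcl3 is left out in unconfined cells, where it was under the floor, and from the interaction.

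The rest of the CXCR2 axis was at low levels in these macrophages. Of the other ligands, Cxcl5 had at most 2.40 normalized counts in any library and Cxcl15 was at 0 in all 10. The receptors Cxcr1 and Ackr1, the latter a scavenger of chemokines, had at most 4.93 and 1.57. Ppbp, a ligand precursor best known from platelets, and Cxcr2, the receptor of all 3 members, were the 2 of 6 genes tested. Ppbp had 44.6 and 156 counts in unconfined WT, 270 and 155 in unconfined WKO, 34.0 to 48.2 in confined WT and 33.7 to 67.5 in confined WKO. Its confinement difference was -0.998 in WT (adjusted p = 0.447) and -1.98 in WKO (adjusted p = 0.0728) by limma. Cxcr2 had 27.5 and 39.3 counts in unconfined WT, 144 and 85.7 in unconfined WKO, 16.1 to 32.8 in confined WT and 31.2 to 84.7 in confined WKO. Between genotypes in confined cells it differed by 1.38 (limma adjusted p = 0.12) and, without WKO replicate 5, by 1.79 (adjusted p = 0.0272). Cxcr2 is also 1 of the 12 neutrophil and progenitor markers, of which 1 passed higher in confined WKO with all libraries and 10 without WKO replicate 5 (medians 1.73 and 2.35). Over all genes, 322 passed in either direction with all libraries and 423 without that replicate. The part of the markers in the Cxcr2 difference was not tested.

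Among CXC chemokines that act on other receptors, all 5 tested genes had estimates above 0 after confinement in WKO. In WT 2 were above 0 and 3 below. The median difference was 0.14 in WKO and -0.05 in WT, where that of all tested genes was -0.01 in both. Cxcl10, an interferon-inducible attractant of T cells, was the 1 of these genes that passed in WKO (log2 difference 3.80, SE 0.80, limma adjusted p = 0.0373). Of all tested genes, 1.49% passed higher in WKO. In WT its difference was 3.32 (adjusted p = 0.0826), and the interaction gave an adjusted p of 0.999. Without WKO replicate 5 Cxcl10 passed in both genotypes, at 3.32 in WT and 2.77 in WKO. Its counts were 6.65 and 20.2 in unconfined WT, 20.7 and 24.8 in unconfined WKO, 128.6, 89.2 and 173.5 in confined WT and 216.5, 117.9 and 1377 in confined WKO.

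NF-kB subunits and inhibitors, of which several are themselves switched on by NF-kB, rose in part after confinement. In WT 5 of the 12 tested genes passed higher and in WKO 9 did, with none lower. Over all tested genes 0.891% passed higher in WT and 1.49% in WKO. The median difference of the 12 was 1.33 in WT and 1.76 in WKO, where that of all tested genes was -0.01 in both. The 5 in WT were Nfkbiz, Nfkbia, Tnfaip3, Rel and Bcl3. Nfkbia, the inhibitor IkB-alpha, had 512 and 497 counts in unconfined WT and 4968, 7216 and 10114 in confined WT (3.82, SE 0.48, limma adjusted p = 0.00286); in WKO its difference was 3.55. Nfkbiz, a nuclear co-factor of NF-kB, differed by 5.18 in WT and 4.66 in WKO, and Rel, a subunit of NF-kB, by 2.33 and 2.34. Tnfaip3, the ubiquitin-editing inhibitor A20, differed by 2.43 and 2.71, and Bcl3 by 1.60 and 1.49. Nfkbid and Nfkbie, 2 further inhibitors, passed in WKO at 2.03 and 2.66 and had 0.97 and 1.99 in WT. The subunit genes Nfkb1 and Rela passed in neither genotype. WKO replicate 5 was the highest confined library for all 12 genes, and without it 8 passed in WT and 9 in WKO. Over all genes 402 in WT and 241 in WKO then passed in either direction, against 144 and 214 with all libraries. The WKO differences were then 3.84 for Nfkbiz, 3.01 for Nfkbia and 2.01 for Nfkbie.

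Of 10 regulators of chemokine mRNA stability, 3 passed higher in each genotype and none lower. Of all tested genes, 0.891% passed higher in WT and 1.49% in WKO. Zc3h12a, the endonuclease Regnase-1, had 191 and 218 counts in unconfined WT and 1613, 1653 and 1685 in confined WT, a difference of 3.01 (SE 0.30, limma adjusted p = 0.000985), with 2.86 in WKO. Zfp36, or tristetraprolin, differed by 2.07 in WT and 1.82 in WKO, and Arid5a, which stabilises inflammatory transcripts, by 1.76 and 1.53. Without WKO replicate 5 there were 4 in each genotype. Over all genes 402 in WT and 241 in WKO then passed in either direction, against 144 and 214 with all libraries. The passing genes thus included decay factors (Zc3h12a, Zfp36) as well as a stabilising one.

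Of the other attractants and growth factors for neutrophils, 7 of 10 were tested, and 4 were higher after confinement in WT and 5 in WKO. In each genotype 2 passed higher, Tnf and Il1b, both cytokines that induce these chemokines in many cells. The share of all tested genes passing higher was 0.891% in WT and 1.49% in WKO. Tnf had 71.2 and 69.1 counts in unconfined WT and 3293, 5719 and 13389.5 in confined WT (6.47, SE 0.77, limma adjusted p = 0.0026), and its difference in WKO was 6.46. Il1b differed by 5.36 in WT and 5.68 in WKO. Without WKO replicate 5 the WKO differences were 5.67 for Tnf and 4.64 for Il1b, and Il1a passed as well, giving 3 in each genotype. In that setting 402 genes in WT and 241 in WKO passed for confinement in either direction. Across these pathway lists Cxcl12, a stromal chemokine, was the 1 gene that passed between genotypes, higher in confined WKO by 3.94 (limma adjusted p = 0.0218). It was also higher in unconfined WKO, with 96.7 and 107 counts against 8.55 and 28.8 in unconfined WT. That difference was 2.61 (limma adjusted p = 0.381), and the interaction gave an adjusted p of 0.999. Its highest count, 451.7, was in WKO replicate 5, which also had the highest stromal sum, and their relation was not tested. Without that library 4 genes of these lists passed between genotypes in confined cells, Cxcl12 at 2.88 (adjusted p = 0.0140), Cxcr2 at 1.79, Zfp36l1 at 0.68 and Alox5 at 1.60. Over all genes 423 passed in that setting, against 322 with all libraries. The lists were drawn up with earlier results of these data known.

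**Figure D4:**
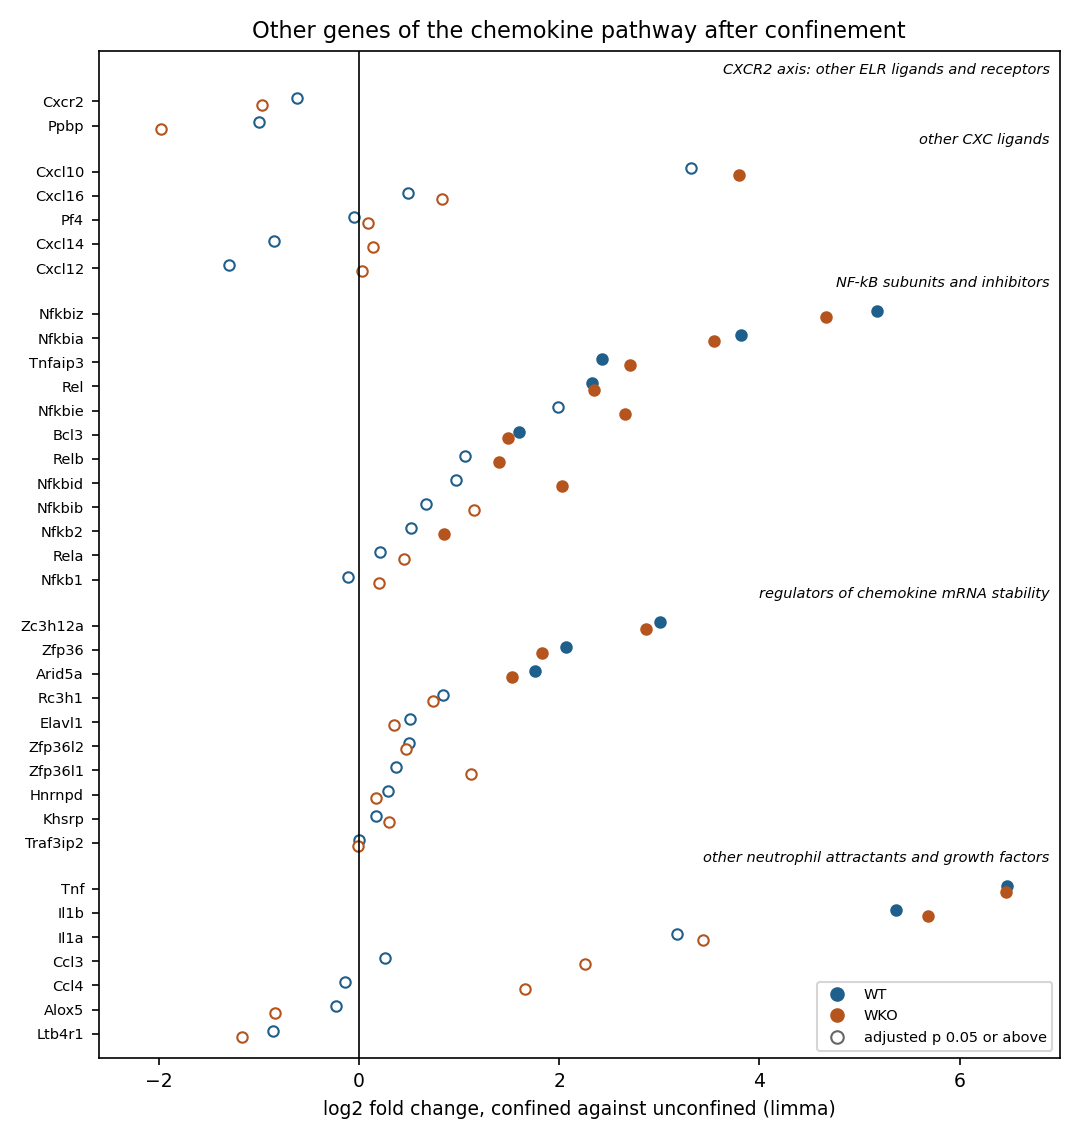
Confined against unconfined log2 fold change (limma, horizontal axis) of the other tested genes of the chemokine pathway, grouped by list, in WT (blue) and WKO (orange). Filled points passed at an adjusted p under 0.05; Tnf, Il1b, Nfkbiz and Nfkbia lie farthest to the right among those passing in both genotypes, while Cxcr2 and Ppbp lie below 0.

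Markers of other cells were read beside these results. Summed stromal markers were 758 to 1556 in unconfined WT, 1826 to 2068 in unconfined WKO, 158 to 620 in confined WT and 583 to 7807 in confined WKO, with Lum at 0 in both WT groups and Lepr at 0 in confined WT. Among the confined libraries the stromal sum was highest in WKO replicate 5, as were the chemokines, while WKO replicate 1 had 2649 and WKO replicate 2 had 583. The largest parts of the sum in WKO replicate 5 were Col1a1 (3402) and Col1a2 (2922). Dcn had 14.4 there against 66.7 in WKO replicate 1, while the other stromal markers were highest in WKO replicate 5. Summed neutrophil and progenitor markers were 3507 to 9970.3 in confined WT and 9971 to 31097 in confined WKO, and in WKO replicate 5, where the chemokines were highest, they were the lowest of the 3. Of single markers, Csf3r was the highest of the 3 there (1881) and Mmp8 (1063) lay between WKO replicates 1 and 2. The other markers of this list were the lowest of the 3 there. Summed macrophage markers ranged from 196391 to 219542 in confined WT and from 266682 to 320603 in confined WKO. Lyz2 made the largest part of these sums. Of the 8 genes, 6 had higher estimates in confined WKO than in confined WT and 2, Itgam and Mrc1, had lower ones. B cell markers stayed at or below 182 and mast cell markers at or below 130.2, with Mcpt4 and Tpsb2 at 0 in all groups. The part of these cells in the spread of the chemokines between confined WKO libraries was not tested.

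**Figure D5:**
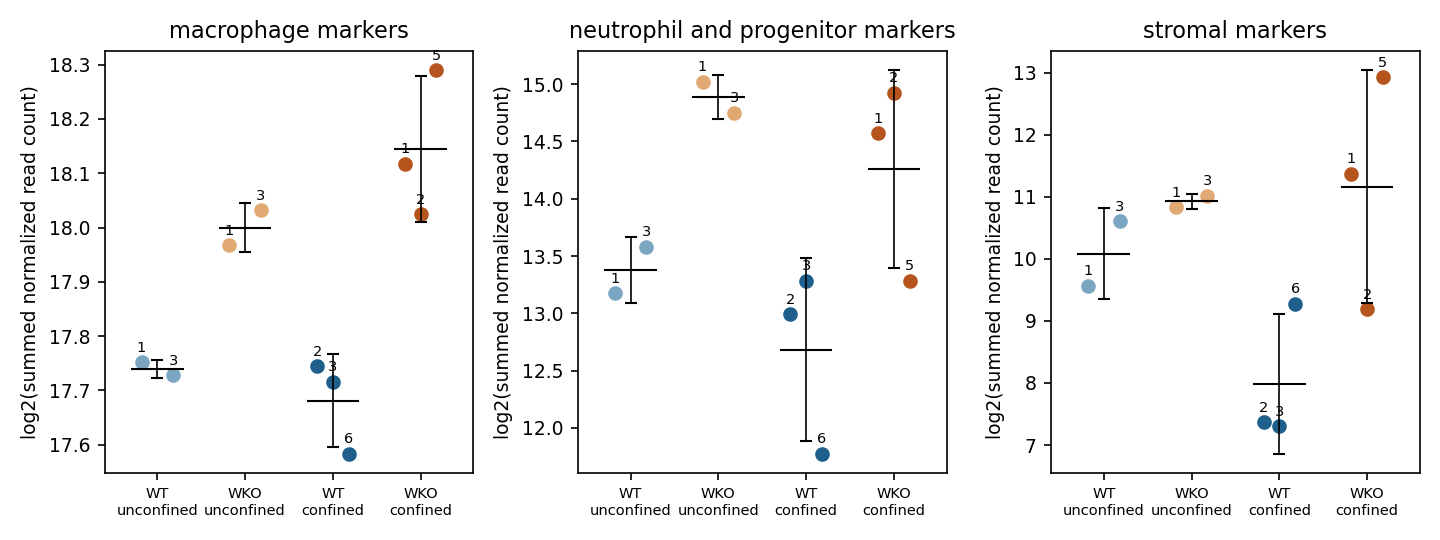
Summed normalized read counts of 8 macrophage, 12 neutrophil and progenitor and 10 stromal marker genes in each library, as log2, with group means and SDs; the vertical axes differ in range and do not start at 0. WKO confined replicate 5 has the highest stromal sum and the lowest neutrophil and progenitor sum of the confined WKO libraries.

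The genes whose levels followed each chemokine most closely over the 10 libraries were ranked by Pearson's r of log2(count + 1), as a description in which the 2 states of confinement weigh most. For Cxcl1 they were Irf1 (0.991), Junb (0.986), Nfkbiz (0.986), Zc3h12a (0.984) and Socs3 (0.981). For Cxcl2 they were Nfkbia (0.993), Ifrd1 (0.990), Nfkbiz (0.989), Tnf (0.988) and Gdf15 (0.986). For Cxcl3 they were Ets2 (0.989), Ppp2r2d (0.979), Dusp5 (0.977), Sowahc (0.974) and Rara (0.971). Nfkbiz stood in the lists of both Cxcl1 and Cxcl2, and the Cxcl3 list shared no gene with the others. When group means were taken out, so that r described the spread between replicates, Cxcl1 was followed by Maff (0.990), Cpt1a (0.988), Dtnbp1 (0.970), Nfkbia (0.967) and Btg2 (0.966). Cxcl2 was followed by Zfp36 (0.964), Enah (0.963), Rnase4 (0.958), Syt13 (0.958) and Tpm1 (0.957), and Cxcl3 by Lox (0.982), Slc6a8 (0.972), Bcor (0.971), Ngdn (0.969) and Zmym5 (0.968). Without WKO replicate 5 the last 3 series ranged from 0.924 to 0.981, from 0.898 to 0.984 and from 0.893 to 0.987. These genes were picked with that library in, as the highest of all tested genes over 10 libraries. High values of r are therefore partly given by the choice.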

How the data were processed

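The values are the authors' signal, deposited as read counts scaled per library, for 57010 Ensembl identifiers. FastQC, Trim Galore, STAR and the builds GRCm38 and mm10 are named per the submitters' processing notes; the counting tool, annotation and use of strand are not given in the sources used here. All values were whole multiples, within 0.001, of what 1 read is worth in each library, so reads were recovered by division. The labels' genotype and treatment gave the groups, and no library was left out. The main test was limma 3.58.1 (R 4.3.3) on log2 of the value plus 1, with 1 mean per group over all 10 libraries, trended empirical Bayes variances and Benjamini-Hochberg adjustment over the 12455 genes with a mean of at least 10, at a threshold of 0.05. The scripts were tested on simulated data. Alternatives were other pseudocounts, no filter, TMM and upper-quartile scaling, edgeR 4.0.16 and DESeq2 1.42.0 on the recovered reads, other variance models, a replicate block and each library left out. GENCODE M21 gave positions and transcript lengths, and transcripts were compared with blastn 2.17.0. Replicates of a group differed by more than sampling noise (chi-square per degree of freedom 7.56 to 78.3). The members and lists were chosen with earlier results of these data known. Genes named are the members, the CXCR2 axis, up to 5 passing genes of each other list with the smallest p per confinement contrast, and the 5 genes most like each member; Cxcl12, Il1a, Alox5, Zfp36l1, Nfkbie, Nfkb1, Rela and the 4 tested genes with the shared promoter run were named after their values were seen. Marker genes given singly, such as Csf3r, Dcn and Itgam, were also named after their values were seen.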

Additional observations from a re-analysis of the deposited data

How the results depend on the processing

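Of 145 alternative values for the tested genotype and interaction results of the chemokines, 127 kept their direction and side of the threshold, though not always their size; of 126 for confinement, 116 moved by less than the SD between replicates. In unconfined cells the Cxcl1 genotype difference of 2.58 passed without WKO confined replicate 5 and, at the same 2.58, with a replicate block (adjusted p = 0.00104); leaving out each library gave 1.88 to 3.27. In confined cells the Cxcl1 difference of -0.13 turned to 0.25 with edgeR and 0.27 with DESeq2 and fell to -1.21 with array weights (adjusted p = 0.0763; -0.88 to 0.57 with a library left out), and that of Cxcl2, 0.52, to -0.56 with array weights (-0.29 to 1.22). The Cxcl2 interaction of -0.02 turned to 0.026 with a pseudocount of 5, 0.29 with edgeR and 0.31 with DESeq2 (-0.83 to 0.69). No alternative gave an adjusted p under 0.05 for these, and the cause was not tested. Confinement differences moved with the pseudocount of 5, to 7.42 for Cxcl1 and 1.99 for Cxcl3 in WT and 3.24 for Cxcl3 in WKO; for Cxcl3 with edgeR to 4.94 and 8.96 and with DESeq2 to 5.24 and 8.38 in WT and WKO; with array weights in WKO to 4.66 for Cxcl1 and 5.68 for Cxcl2; and with the replicate block to 4.36 for Cxcl3 in WKO. Counts of genes passing moved most. Between genotypes in unconfined cells 18 became 10 with no filter, 179 with DESeq2, 189 with only the compared groups, 4 with no trend, 166 with array weights, 245 with the replicate block and 4 to 148 with a library left out. In confined cells 322 became 186, 775, 90, 53 and 1948 under the first 5 of these and 58 to 713 with a library left out. For confinement, 144 in WT became 333 with DESeq2, 455 with only the compared groups, 20 with no trend, 419 with array weights and 22 to 402 with a library left out, and 214 in WKO became 486, 33, 45, 1735 and 43 to 1044. Same-numbered unconfined libraries had deviations correlated at 0.033, the numbers give 2 pairs in the unconfined comparison and 1 in each other, and the labels name no shared mouse or day, so they were not treated as pairs; WT replicate 6 and WKO replicate 5 share no number and drop out of the block. The Cxcl3 interaction and its genotype difference in unconfined cells are not given, and the interaction with only the compared groups was not computed. Depth limits Cxcl3 before confinement to 3 reads per library or fewer and Cxcl1 in unconfined WT to 6 reads in all.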
